A study of Mus musculus with 12 samples.

Results

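The genes described here are 10 genes of the supporting tissue around developing nephrons: the collagen genes Col1a1, Col1a2 and Col3a1, the matrix gene Postn, the collagen receptor gene Ddr2, the smooth muscle actin gene Acta2, the chemokine gene Cxcl12, the cell surface gene Gas1, and the transcription factor genes Meis1 and Nr2f1. Members were taken as every probe set that the array annotation assigns to exactly 1 of these symbols, which gave 16 probe sets of 12422 on the array, and 10 genes of 8251. The genes were selected on levels measured on these same arrays, and the comparison behind that choice is not named. Levels and differences between all groups are therefore given as a description. Counts of members past limma's threshold stand beside the share of all probe sets, and nothing is read from them.

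The series profiled structures microdissected by shape from wild-type Swiss Webster mouse kidneys at E14.5 (Theiler stage 22), with the sex not recorded. RNA was amplified in 2 rounds and hybridized to MG_U74Av2 arrays, with 3 arrays in each of 4 groups. Single S-shaped bodies (replicates 3, 4 and 5) came from 1 structure per array. Pooled S-shaped bodies (replicates 1, 2 and 3) and renal vesicles (replicates 2, 3 and 4) came from pools of 20 structures per array, and collecting ducts (replicates 1, 2 and 3) from 1 unpooled sample per array. Pool size and structure therefore cannot be told apart where pooled S-shaped bodies or renal vesicles are compared with collecting ducts. A renal vesicle is the first epithelial ball of a nephron, an S-shaped body is the later folded stage that a capillary enters, and the collecting duct system grows from the ureteric bud.

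Kidney stroma is the mesenchyme that surrounds the nephron progenitors and tubules, and its cortical part descends from cells that express the transcription factor gene Foxd1. Stromal and perivascular cells secrete the fibrillar collagens of the interstitium, and their smooth muscle-like derivatives, pericytes and mesangial cells, attach to vessels and to the glomerular tuft. Signals such as the chemokine CXCL12 pass from stroma and podocytes to endothelium, so a gene of this group need not come from stroma alone.

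Promoter sequences are shown for 5 members with contrasting patterns, picked after their values had been seen: Col1a2, Acta2 and Cxcl12, higher in pooled S-shaped bodies than in renal vesicles, and Meis1 and Gas1, with overlapping values in those 2 groups. Each is the 250 bases before the RefSeq start on GRCm38.p6, on the strand of the gene: Col1a2 at chr6:4505368-4505617 (plus strand), Acta2 at chr19:34255374-34255623 (minus), Cxcl12 at chr6:117168285-117168534 (plus), Meis1 at chr11:19018970-19019219 (minus) and Gas1 at chr13:60177536-60177785 (minus). Capitals mark matches to CCAAT, a promoter element.
Col1a2: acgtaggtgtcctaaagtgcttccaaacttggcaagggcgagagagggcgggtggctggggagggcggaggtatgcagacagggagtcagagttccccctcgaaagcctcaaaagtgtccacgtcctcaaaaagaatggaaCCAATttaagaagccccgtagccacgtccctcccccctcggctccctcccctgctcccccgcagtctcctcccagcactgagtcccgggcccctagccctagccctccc
Acta2: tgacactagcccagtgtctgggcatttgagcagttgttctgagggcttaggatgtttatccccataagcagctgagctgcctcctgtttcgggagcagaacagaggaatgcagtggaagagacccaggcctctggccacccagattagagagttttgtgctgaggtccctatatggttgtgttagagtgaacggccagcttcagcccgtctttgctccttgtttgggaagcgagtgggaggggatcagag
Cxcl12: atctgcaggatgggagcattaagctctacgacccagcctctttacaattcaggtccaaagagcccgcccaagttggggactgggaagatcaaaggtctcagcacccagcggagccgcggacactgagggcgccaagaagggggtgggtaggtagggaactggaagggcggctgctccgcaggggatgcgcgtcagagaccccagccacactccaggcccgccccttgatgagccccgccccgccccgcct
Meis1: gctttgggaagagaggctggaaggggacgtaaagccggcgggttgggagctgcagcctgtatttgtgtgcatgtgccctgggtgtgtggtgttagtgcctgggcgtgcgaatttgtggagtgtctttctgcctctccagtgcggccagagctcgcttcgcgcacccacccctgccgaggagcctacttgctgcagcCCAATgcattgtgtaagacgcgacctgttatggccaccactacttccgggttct
Gas1: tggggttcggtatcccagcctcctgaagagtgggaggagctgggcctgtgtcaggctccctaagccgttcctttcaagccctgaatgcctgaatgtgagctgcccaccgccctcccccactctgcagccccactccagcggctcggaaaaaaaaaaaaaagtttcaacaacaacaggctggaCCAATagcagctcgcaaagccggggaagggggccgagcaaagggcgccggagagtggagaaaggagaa

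Both strands were searched for CCAAT, for the TATA box in the form of TATAAA, and for the strict CArG box, which serum response factor binds in smooth muscle genes and which was added after the sequences had been read. No motif overlaps another here. CCAAT lies 109 to 105 bases before the start of Col1a2, 54 to 50 before Meis1 and 68 to 64 before Gas1, and 33.8% of 32851 promoters of the same length hold it. The TATA box form, which 12.4% of promoters hold, and the strict CArG box, which 1.47% hold, are in none of the 5 windows. The Acta2 window does hold ccctatatgg and ccttgtttgg, which come close to the strict CArG box without matching it. Looser forms of that box were not searched, so only the strict form is reported as absent. These matches describe the letters only.

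Levels below are log2 values after quantile normalization of the deposited intensities, with a pseudocount of 7.22, so 2.85 is the lowest possible value and stands for a signal at or below 0. The lowest 5% of an array's deposited values fell below 0 by some distance, and an intensity over that distance was taken as signal above background. Mean deposited intensity per array was 21.45 to 70.59 for single S-shaped bodies, 203.3 to 238.8 for pooled S-shaped bodies, 108.1 to 130.9 for renal vesicles and 272.5 to 362.7 for collecting ducts. Between 48.31% and 59.69% of probe sets were above background per array, fewest on the single S-shaped body arrays (48.31% to 54.42%). The ratio of 3′ to 5′ signal of the beta-actin control, which increases as transcripts are shortened, was 75.76 to 91.45 in single and 31.55 to 46.62 in pooled S-shaped bodies, 36.12 to 43.34 in renal vesicles and 27.68 to 89.42 in collecting ducts. The ratio of 3′ to middle signal of the same control was 7.553 to 10.38 in single S-shaped bodies, 3.224 to 3.925 in pooled S-shaped bodies, 7.885 to 9.02 in renal vesicles and 6.291 to 10.45 in collecting ducts, so pooled S-shaped bodies stood apart from the other groups. Its part in the differences of pooled S-shaped bodies was not tested.

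The labelled structures were compared with marker genes. Krt19, a keratin of the ureteric epithelium, was 11.16 to 11.51 on the collecting duct arrays and not above background on the other 9 arrays. Over 12 ureteric genes the summed signal was 597 to 1767 in single S-shaped bodies, 789.5 to 1459 in pooled S-shaped bodies, 369 to 1316 in renal vesicles and 10210 to 11220 in collecting ducts. Summed signals here and below are linear normalized values, added over the genes of a list. Over 10 nephron progenitor and early nephron genes the sum was 859.5 to 1185 in single S-shaped bodies, 890.9 to 1123 in pooled S-shaped bodies, 2259 to 3332 in renal vesicles and 252 to 299.4 in collecting ducts.

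**Figure D1:**
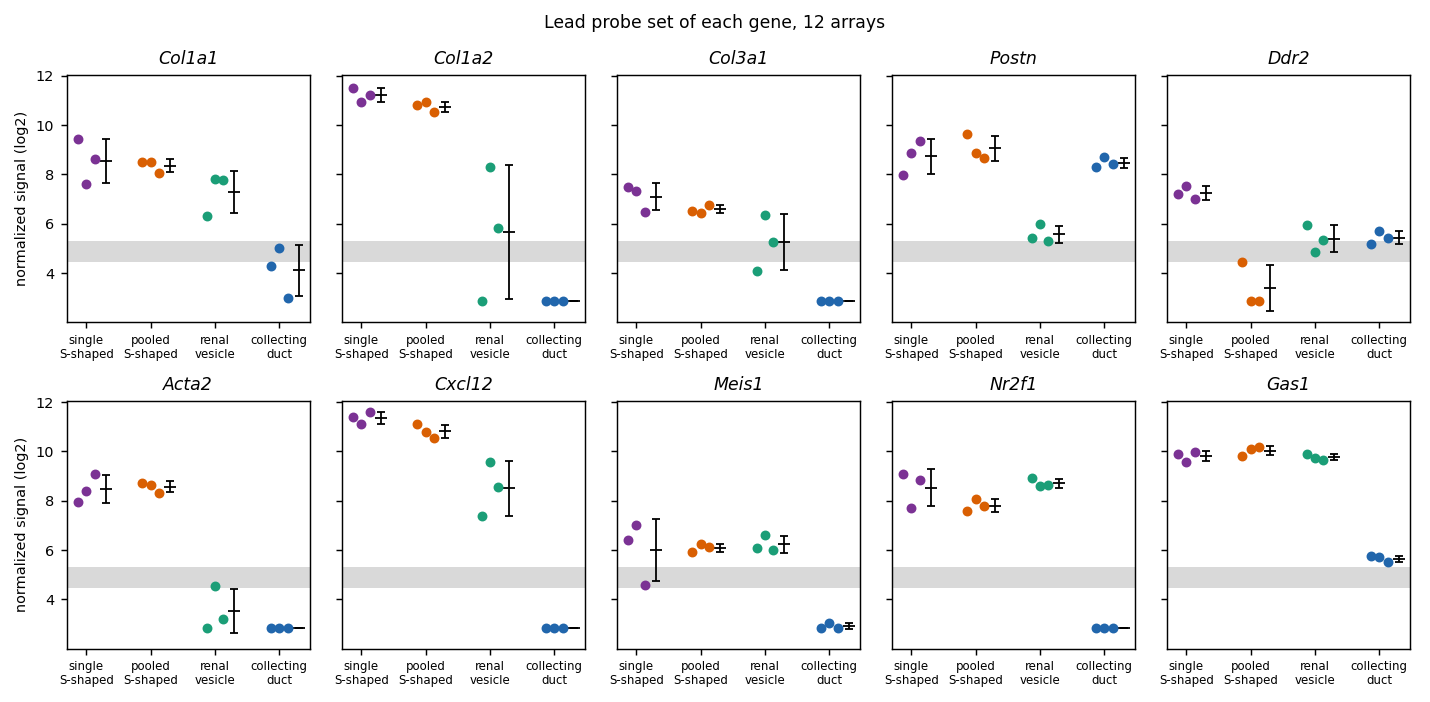
Log2 level of the 10 members (lead probe set of each) on every array, in single S-shaped bodies, pooled S-shaped bodies, renal vesicles and collecting ducts; points are arrays, black marks are the mean ± SD of 3 arrays, and the grey band is the range over arrays of the lowest level that counts as above background. Cxcl12, Nr2f1, Col1a2, Col3a1 and Acta2 lie at the lowest possible value of 2.85 on all 3 collecting duct arrays, while Postn lies at 8.31 to 8.70 there.

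Type I collagen is built from the products of Col1a1 and Col1a2 and is the main tensile fibre of interstitial matrix. Col1a2 was 11.52, 10.95 and 11.23 in single S-shaped bodies, and 10.80, 10.92 and 10.53 in pooled S-shaped bodies. Renal vesicles had 2.85, 8.30 and 5.84, and collecting ducts 2.85 on all 3 arrays. All 6 S-shaped body arrays were high, no collecting duct array was above background, and the renal vesicle arrays ran from the lowest possible value to an intermediate one. The pooled S-shaped body arrays were at least 66.2-fold above the background level of the collecting duct arrays, and the fitted difference from renal vesicles was 5.09 ± 0.97 log2 units (SE). That difference was 3.69 without renal vesicle replicate 2 and 6.41 without replicate 3. The difference of renal vesicles from collecting ducts, 2.81 ± 0.97, came from 2 of 3 vesicle arrays and was 4.21 without replicate 2, 1.49 without replicate 3 and 2.72 without replicate 4. In these bulk samples, fewer cells of a type and less RNA per cell cannot be told apart.

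A "fold of at least" in this text sets the mean of the brighter group against the level just above background where every array of the dimmer group was at or under background. The second Col1a2 probe set did not share this pattern: it was 7.36 to 7.63 in single S-shaped bodies, 6.74 to 7.03 in pooled S-shaped bodies, 6.66 to 6.71 in renal vesicles and 6.73 to 7.19 in collecting ducts. Its pooled S-shaped bodies and collecting ducts overlapped, with a difference of -0.09 ± 0.19. The array maker marks this set as one with relaxed probe selection rules, and the lead sets of Col3a1, Cxcl12 and Meis1 as ones whose probes can match related transcripts.

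Col1a1 was 9.42, 7.60 and 8.61 in single S-shaped bodies, and 8.51, 8.50 and 8.07 in pooled S-shaped bodies. Renal vesicles had 6.31, 7.81 and 7.78, and collecting ducts 4.30, 5.02 and 3.0. All 9 nephron arrays were above all collecting duct arrays, where 1 of 3 arrays was above background on this lead probe set and 3 of 3 were on the second. Pooled S-shaped bodies differed from collecting ducts by 4.25 ± 0.50 log2 units and renal vesicles by 3.19 ± 0.50. The second Col1a1 probe set gave smaller differences, 1.42 ± 0.28 and 1.27 ± 0.28. Pooled S-shaped bodies against renal vesicles differed by 1.06 ± 0.50 on the lead probe set, without overlap of the arrays, and by 0.16 ± 0.28 with overlap on the second.

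Col3a1 encodes type III collagen, which forms thin fibrils in distensible tissues and vessel walls. It was 7.48, 7.34 and 6.47 in single S-shaped bodies, and 6.52, 6.46 and 6.77 in pooled S-shaped bodies. Renal vesicles had 4.10, 6.37 and 5.27, and collecting ducts 2.85 on all 3 arrays. Pooled S-shaped bodies were at least 3.68-fold and renal vesicles at least 1.46-fold above the collecting duct background. The 3 probe sets of Col3a1 ran in the same direction in these comparisons, although the dimmest was above background only in pooled S-shaped bodies. The difference of pooled S-shaped bodies from renal vesicles was 1.34 ± 0.46 on the lead probe set, where arrays did not overlap, and 0.76 ± 0.37 on the next brightest, where they did.

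**Figure D2:**
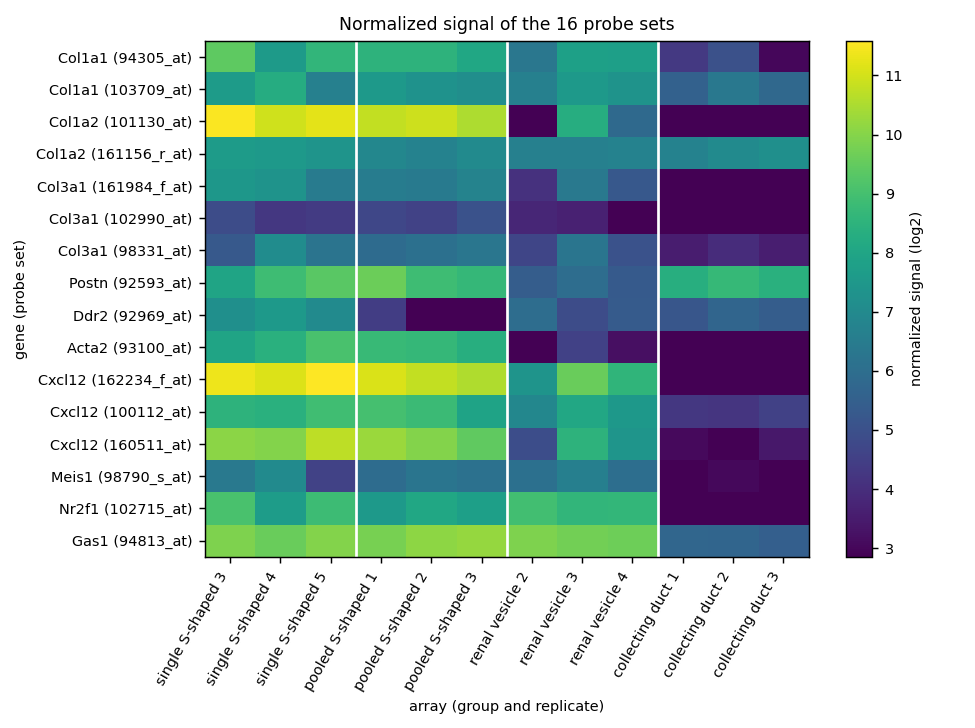
Heat map of the log2 level of the 16 member probe sets (rows) on the 12 arrays (columns, from single S-shaped bodies through pooled S-shaped bodies and renal vesicles to collecting ducts, parted by white lines). The 3 Cxcl12 probe sets darken from pooled S-shaped bodies over renal vesicles to collecting ducts, whereas the second Col1a2 probe set stays between 6.66 and 7.63.

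Postn encodes periostin, a matrix protein that binds collagen and integrins. It was 7.97, 8.88 and 9.36 in single S-shaped bodies, and 9.63, 8.88 and 8.66 in pooled S-shaped bodies. Renal vesicles had 5.42, 5.97 and 5.31, and collecting ducts 8.31, 8.70 and 8.41. Renal vesicles were the low group, on all 3 arrays below every other array, and pooled S-shaped bodies and collecting ducts overlapped. Renal vesicles were 7.48-fold below collecting ducts (log2 difference -2.90 ± 0.26), and pooled S-shaped bodies 11.2-fold above renal vesicles (3.48 ± 0.26). Pooled S-shaped bodies differed from collecting ducts by 0.58 ± 0.26. On the lead probe sets, Postn, Gas1 and Ddr2 were the 3 members above background on all collecting duct arrays. The second probe sets of Col1a1 and Col1a2 were too.

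Ddr2 encodes a receptor tyrosine kinase that fibrillar collagens activate. It was 7.19, 7.55 and 7.02 in single S-shaped bodies, and 4.45, 2.85 and 2.85 in pooled S-shaped bodies. Renal vesicles had 5.97, 4.87 and 5.35, and collecting ducts 5.17, 5.70 and 5.43. Pooled S-shaped bodies were not above background on any of 3 arrays, and the other 9 arrays were all above it. Renal vesicles and collecting ducts overlapped, with a difference of -0.04 ± 0.45. Pooled S-shaped bodies were at least 1.70-fold below collecting ducts and at least 1.66-fold below renal vesicles, and single S-shaped bodies at least 6.01-fold above pooled ones.

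Acta2 encodes smooth muscle alpha-actin, a contractile protein of arterial walls, pericytes and mesangial precursors. It was 7.96, 8.38 and 9.09 in single S-shaped bodies, and 8.73, 8.66 and 8.33 in pooled S-shaped bodies. Renal vesicles had 2.85, 4.55 and 3.22, and collecting ducts 2.85 on all 3 arrays. Only replicate 3 of the renal vesicles was above background, beside all 6 S-shaped body arrays. Pooled S-shaped bodies were at least 14.6-fold above the collecting duct background and 5.03 ± 0.39 log2 units above renal vesicles. The overlap of renal vesicles and collecting ducts left a difference of 0.69 ± 0.39.

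Cxcl12 encodes a chemokine that in mouse kidney is made by stroma and by podocytes and acts on endothelium. It was 11.38, 11.12 and 11.59 in single S-shaped bodies, and 11.10, 10.80 and 10.54 in pooled S-shaped bodies. Renal vesicles had 7.37, 9.59 and 8.56, and collecting ducts 2.85 on all 3 arrays. On the lead probe set the 4 groups followed each other without any overlap of arrays, single S-shaped bodies being highest, which held for no other member's lead set. On the other Cxcl12 probe sets single and pooled S-shaped bodies overlapped, with differences of 0.35 ± 0.26 on the brighter and 0.016 ± 0.29 on the dimmer. Pooled S-shaped bodies were at least 69.0-fold and renal vesicles at least 14.0-fold above the collecting duct background. Pooled S-shaped bodies exceeded renal vesicles by 2.31 ± 0.43 on the lead probe set, by 2.96 ± 0.68 on the next brightest and by 1.09 ± 0.34 on the dimmest, where the arrays overlapped.

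The receptors of CXCL12 are no members and were tested. The p-values measure the spread between these arrays, each of which the design text counts as a biological replicate; whether they came from separate embryos is not stated. Ackr3, a receptor that binds and removes the chemokine, had a log2 level of 10.84 ± 0.14 in pooled S-shaped bodies, 9.52 ± 0.80 in renal vesicles and 8.53 ± 0.16 in collecting ducts (SD, n = 3 arrays each). It rose by 2.31 ± 0.31 log2 units in pooled S-shaped bodies against collecting ducts (limma adjusted p = 0.000152), by 1.32 ± 0.31 against renal vesicles (0.00605) and by 0.99 ± 0.31 in renal vesicles against collecting ducts (0.0379). The last of these calls was lost under 9 of 19 other settings, with adjusted p up to 0.129, and without collecting duct replicate 1, 2 or 3 among them. Cxcr4, the signalling receptor, was above background on 2 of 3 pooled S-shaped body arrays and on 0 of 3 collecting duct arrays, at least 1.06-fold higher (adjusted p = 0.00403).

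Gas1 encodes a cell surface protein that helps cells to receive hedgehog signals and resembles the receptors of GDNF, and in mouse kidney it is also known from nephron progenitors. It was 9.91, 9.59 and 9.96 in single S-shaped bodies, and 9.81, 10.11 and 10.19 in pooled S-shaped bodies. Renal vesicles had 9.89, 9.74 and 9.65, and collecting ducts 5.74, 5.70 and 5.50. The 9 nephron arrays lay between 9.59 and 10.19, above all duct arrays, although the ducts too were above background on all 3 arrays. Renal vesicles were 17.2-fold (4.11 ± 0.15) and pooled S-shaped bodies 20.9-fold (4.39 ± 0.15) above collecting ducts. Pooled S-shaped bodies overlapped with renal vesicles, at 0.28 ± 0.15.

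Of 15 listed partners of the members, 9 were tested, and 4 rose and 0 fell in renal vesicles against collecting ducts (limma, adjusted over all probe sets), where 23.7% of all 9316 probe sets were called. The 4 were Gdnf, Ptch1, Ackr3 and Smo. In pooled S-shaped bodies against collecting ducts, where 37.9% of all probe sets were called, Ackr3, Cxcr4, Gdnf and Ptch1 rose. Gdnf, the growth factor that draws the ureteric bud into the mesenchyme, rose by 3.03 ± 0.26 in renal vesicles against collecting ducts (limma adjusted p = 1.14e-05). Ptch1, the hedgehog receptor and a target of that pathway, rose there by 1.08 ± 0.17 (limma adjusted p = 0.00108). In pooled S-shaped bodies Gdnf was 1.15 ± 0.26 above collecting ducts (0.00483) but fell by 1.88 ± 0.26 against renal vesicles (0.000259), as did Smo, the hedgehog signal transducer, by 0.78 ± 0.16 (0.0026). On the deposited scale, which shifts the median of all probe sets by -1.39 in renal vesicles against collecting ducts, Ptch1 was -0.36 and Ackr3 -0.46 there, and Smo was 0.28 in pooled S-shaped bodies against renal vesicles.

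Meis1 encodes a homeodomain protein widely used to mark renal stroma in mouse. It was 6.40, 7.03 and 4.59 in single S-shaped bodies, and 5.93, 6.26 and 6.11 in pooled S-shaped bodies. Renal vesicles had 6.07, 6.61 and 6.01, and collecting ducts 2.85, 3.04 and 2.85. Apart from single S-shaped body replicate 5, which was under background, the nephron arrays lay between 5.93 and 7.03. Renal vesicles were at least 2.88-fold and pooled S-shaped bodies at least 2.63-fold above the collecting duct background. The difference of pooled S-shaped bodies from renal vesicles was -0.13 ± 0.26 with overlapping arrays, and it turned positive on the deposited scale.

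Nr2f1 encodes the orphan nuclear receptor COUP-TFI, a transcription factor of many embryonic mesenchymes. It was 9.09, 7.69 and 8.83 in single S-shaped bodies, and 7.57, 8.07 and 7.77 in pooled S-shaped bodies. Renal vesicles had 8.93, 8.59 and 8.62, and collecting ducts 2.85 on all 3 arrays. Renal vesicles were at least 16.1-fold and pooled S-shaped bodies at least 8.59-fold above the collecting duct background. Pooled S-shaped bodies lay below renal vesicles without overlap, by -0.91 ± 0.20. On the deposited scale, where the median difference of all probe sets is 0.94 for this comparison, that value was 0.10.

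**Figure D3:**
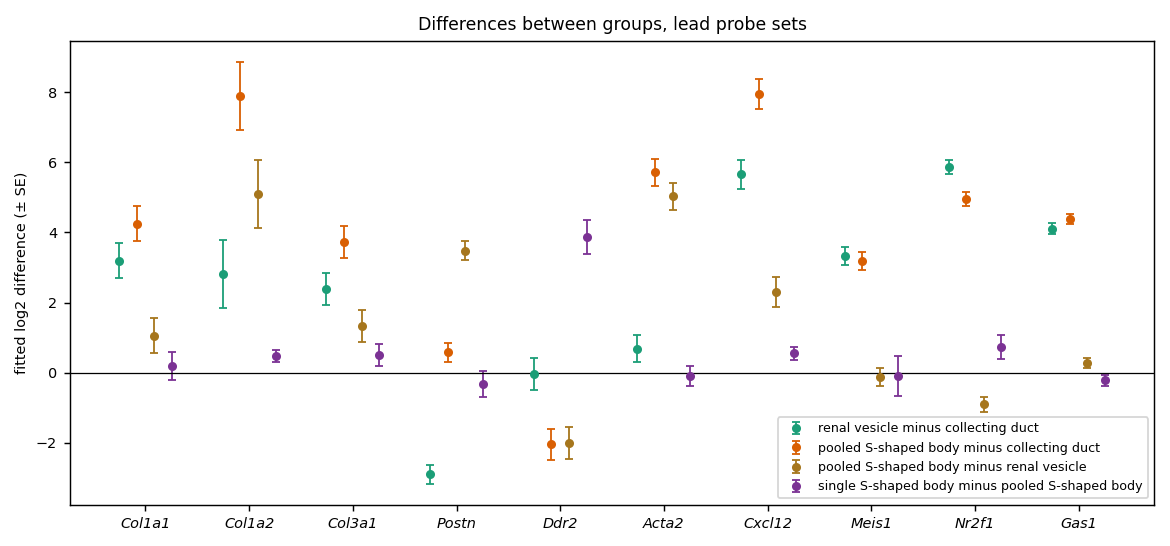
Fitted log2 difference ± SE of each member (lead probe set) in the 4 comparisons: renal vesicle minus collecting duct, pooled S-shaped body minus collecting duct, pooled S-shaped body minus renal vesicle, and single minus pooled S-shaped body. Postn lies at -2.90 in the first comparison and at 3.48 in the third, and Ddr2 lies at 3.87 in the last, where the other 9 members lie between -0.32 and 0.73.

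Renal vesicles against collecting ducts gave calls (limma adjusted p under 0.05) for 6 members that were higher and 1 that was lower, of 10 tested, where 23.7% of 9316 probe sets were called, 12.2% higher and 11.5% lower. The 6 were Col1a1, Col3a1, Cxcl12, Meis1, Nr2f1 and Gas1, and the lower one was Postn. The median difference over the members was 3.0, against -0.03 over all tested probe sets. All 16 member probe sets passed the filter on low values. These counts describe genes picked on these arrays and are no test.

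Pooled S-shaped bodies against collecting ducts gave calls for 8 higher members and 1 lower one, Ddr2, where 37.9% of probe sets were called, 18.0% higher and 19.9% lower. The member without a call was Postn, and the median difference was 4.32, against -0.08 over all probe sets. This comparison shares its collecting duct arrays with the one before. Pooled S-shaped bodies against renal vesicles gave 5 higher (Col1a2, Col3a1, Acta2, Postn and Cxcl12) and 2 lower (Nr2f1 and Ddr2), where 36.3% were called, 17.2% higher and 19.1% lower. The Col3a1 call was lost with a pseudocount of 10% of the median, no filter, no trend, only the 2 groups compared or a replicate block. It was also lost without renal vesicle replicate 2 or 4 and without any pooled S-shaped body or collecting duct array. The medians were 1.20 over the members and -0.03 over all probe sets.

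Arrays did not overlap for 7 members in renal vesicles against collecting ducts (39.5% of all probe sets), 9 in pooled S-shaped bodies against collecting ducts (52.0%) and 8 in pooled S-shaped bodies against renal vesicles (47.2%). By group means, Col1a1, Col1a2, Col3a1 and Cxcl12 were highest in single S-shaped bodies and lowest in collecting ducts, and Acta2 and Gas1 were highest in pooled S-shaped bodies and lowest in collecting ducts. Meis1 and Nr2f1 were highest in renal vesicles. Postn was lowest in renal vesicles and Ddr2 in pooled S-shaped bodies. Neighbours in these orders often overlapped. Single and pooled S-shaped bodies did for Col1a1, Col3a1, Acta2, Postn, Gas1, Meis1 and Nr2f1. Neighbouring groups also overlapped as single S-shaped bodies and renal vesicles for Gas1 and Nr2f1, pooled S-shaped bodies and renal vesicles for Meis1, single S-shaped bodies and collecting ducts for Postn, and renal vesicles and collecting ducts for Col1a2, Acta2 and Ddr2.

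Single against pooled S-shaped bodies gave a call for 1 member, Ddr2, higher in single ones, where 0.386% of probe sets were called, 0.247% higher and 0.140% lower, and 17.6% had an unadjusted p under 0.05. The Ddr2 call was lost with no filter and without pooled replicate 2 or 3 or single replicate 3 or 4. Col1a2, at 0.48 ± 0.17, and Cxcl12, at 0.55 ± 0.18, were also higher in single S-shaped bodies without overlap of the arrays, and 11.7% of all probe sets were higher without overlap. Of the rest, Meis1 differed by -0.09 ± 0.57 (0.62 without single replicate 5), Nr2f1 by 0.73 ± 0.35, Postn by -0.32 ± 0.37 and Col1a1 by 0.19 ± 0.41. On the deposited scale, where the median of all probe sets is shifted by -2.20, the signs of Col1a1, Col1a2, Col3a1, Cxcl12 and Nr2f1 turned. The pool size, the mean intensity and the 3′ to 5′ ratio differ between these 2 groups and cannot be told apart from one another.

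The 3 renal vesicle arrays disagreed on a part of the members, and 5 of 10 lead probe sets shared 1 order. For Col1a1, Col1a2, Col3a1, Acta2 and Cxcl12, replicate 2 was lowest, replicate 4 intermediate and replicate 3 highest on the lead probe set. That order held for 9 of 16 member probe sets (56.2%), against 16.6% of all 9316 tested, and replicate 3 was the highest array in 32.0% of all tested. The order was taken from the 5 lead probe sets, and all 9 are probe sets of these same 5 genes. The 2 shares are therefore a description, and nothing is read from their difference. The spread was wide: the SD over the 3 arrays was 2.73 for Col1a2, larger than for 99.99% of tested probe sets, 1.11 for Cxcl12 (96.55%) and 1.14 for Col3a1 (96.79%). Meis1, at 0.33, Nr2f1, at 0.19, and Gas1, at 0.12, did not have that spread, and their SDs were at the percentiles 53.7, 26.03 and 12.88. Ddr2, with an SD of 0.55 (percentile 78.93), and Nr2f1 ran in the opposite order, lowest in replicate 3 and highest in replicate 2. Postn, with an SD of 0.35 (percentile 57.37), was lowest in replicate 4 and highest in replicate 3.

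**Figure D4:**
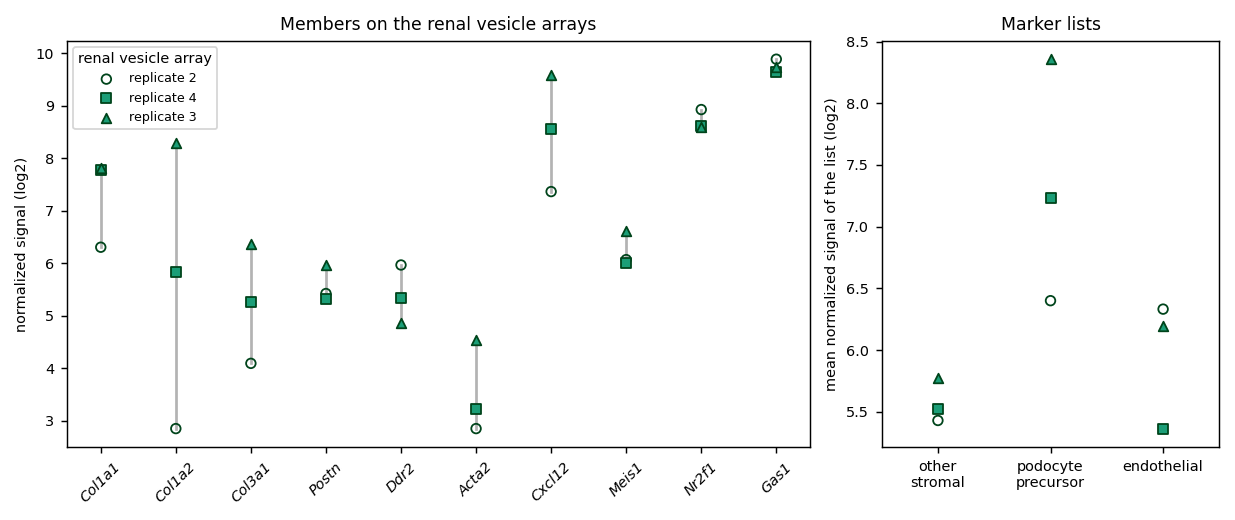
Left, log2 level of the members on the renal vesicle arrays (open circles replicate 2, squares replicate 4, triangles replicate 3; grey lines span the 3 arrays); right, the mean log2 level of 3 marker lists on the same arrays. Col1a2 spans 2.85 to 8.30 and Cxcl12 7.37 to 9.59, whereas Gas1 spans 9.65 to 9.89, and the podocyte list means are 6.40, 7.24 and 8.36 in replicates 2, 4 and 3.

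Podocyte markers followed that order in the same arrays. Ptpro, a phosphatase of podocyte precursors, was 6.79 in replicate 2, 10.95 in replicate 3 and 8.94 in replicate 4. The stromal gene Foxd1 was 4.67, 7.98 and 6.92 in replicates 2, 3 and 4. Tcf21 (6.54, 8.36 and 6.49) and Pdgfra (4.93, 6.18 and 4.45), also listed as stromal, were lowest in replicate 4. Meis2, from the same list, was highest in replicate 2 (5.85, 5.67 and 5.63). The summed signal of 7 podocyte genes was 1579, 5642 and 2440, and 5 of the 6 tested had the order of replicates 2, 4, 3. The exception was Tcf21, which is in the podocyte list as well as the stromal one. The summed signal of 12 ureteric genes, 369, 1316 and 461.5, and that of 10 endothelial genes, 1538, 3185 and 1536, was also highest in replicate 3. The mean log2 level of the endothelial genes was 6.33 in replicate 2, 6.20 in replicate 3 and 5.36 in replicate 4, so highest in replicate 2, and 1 of 10 endothelial genes had the order. Among 52 other stromal genes 15 had it (28.8%). The part of these cell types in the members' spread was not tested.

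Other stromal genes, which are no members, were listed in 4 groups: 14 further collagens, 26 other matrix genes, 15 smooth muscle and pericyte genes, and 21 stromal transcription factors and receptors. Of 76 listed, 62 had a probe set and 52 were tested in the 9 arrays without single S-shaped bodies. In renal vesicles against collecting ducts 19 rose and 0 fell (limma, adjusted over all probe sets), with a median difference of 0.47 against -0.03 for all probe sets, of which 12.2% were called higher and 11.5% lower. In pooled S-shaped bodies against collecting ducts 29 rose and 2 fell, with a median of 1.16 against -0.08, where 18.0% of all probe sets were called higher and 19.9% lower. In pooled S-shaped bodies against renal vesicles 16 rose and 3 fell, with a median of 0.36 against -0.03, where 17.2% of all probe sets were called higher and 19.1% lower. The 19 of 52 called in that comparison are close to the 36.3% of all probe sets called there.

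Of 14 transcription factors and receptors tested, 7 rose in renal vesicles against collecting ducts, as did 9 in pooled S-shaped bodies, with 0 lower in either. Over all probe sets, 12.2% and 18.0% were called higher in these comparisons. Tcf21, a transcription factor of stroma that is also active in podocytes, rose by 3.53 ± 0.61 in renal vesicles (adjusted p = 0.00188) and by 6.20 ± 0.61 in pooled S-shaped bodies (1.91e-05), with 1 of 3 collecting duct arrays above background. Without collecting duct replicate 3 these values were 4.25 and 6.92, and without renal vesicle replicate 3 the first was 2.92. Foxd1 was at least 17.4-fold higher in pooled S-shaped bodies than in collecting ducts (0.00013). Pooled S-shaped bodies exceeded renal vesicles in Tcf21 (2.67 ± 0.61, 0.00571, and 3.29 without renal vesicle replicate 3) and in Ebf1 (at least 1.74-fold, 0.000272), and fell below them in Nr2f2, the paralogue of Nr2f1, by 0.84 ± 0.19 (0.00571). The Nr2f2 value was 0.15 on the deposited scale, and its call was lost with all 12 arrays in the fit. Its probe set is marked as one with relaxed probe selection rules.

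Among the other matrix genes, 7 of 18 tested rose in renal vesicles against collecting ducts, as did 8 in pooled S-shaped bodies. The shares of all probe sets called higher were 12.2% and 18.0%. Timp3, an inhibitor of matrix proteases, was 3.81 ± 0.23 higher in renal vesicles than in collecting ducts (9.87e-07), and pooled S-shaped bodies exceeded collecting ducts by 4.95 ± 0.23 (8.75e-08). Tgfbi, a collagen-binding protein, was at least 2.81-fold higher in renal vesicles (1.87e-05). The 2 that fell in pooled S-shaped bodies against collecting ducts were Fbln2, by 0.80 ± 0.27 (0.0371), and Thbs2, at least 1.14-fold (0.04). Both calls were lost when any collecting duct array was left out, Fbln2 also without any pooled S-shaped body array and Thbs2 without pooled replicate 1 or 2. Against renal vesicles, pooled S-shaped bodies fell in Vcan, a large proteoglycan, by 2.02 ± 0.30 (0.000457) and in Fbln1 by 0.90 ± 0.19 (0.00323), of which Fbln1 was 0.18 on the deposited scale.

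Of 9 further collagens tested, Col5a2, which joins type I collagen in its fibrils, was the 1 that rose in renal vesicles against collecting ducts. In pooled S-shaped bodies 4 rose: Col5a2, Col6a3, Col11a1 and Col15a1. Col5a2 rose by 3.27 ± 0.40 in pooled S-shaped bodies against renal vesicles (0.000121). Of 11 smooth muscle and pericyte genes, 4 rose in renal vesicles against collecting ducts, as did 8 in pooled S-shaped bodies. For these genes and the collagens, the shares of all probe sets called higher in these comparisons were 12.2% and 18.0%. In pooled S-shaped bodies against renal vesicles 4 muscle and pericyte genes rose (Actg2, Des, Myl9 and Tpm1). There 17.2% of all probe sets were called higher. The Actg2 set is marked as one whose probes can match related transcripts, and it was 7.43 to 8.58 on the collecting duct arrays. Pdgfrb in renal vesicles and Myh11 in pooled S-shaped bodies were among the called muscle and pericyte genes although no array of either group was above background. The collagens beside Col5a2, these 4, Pdgfrb and Myh11 were named after their values had been seen.

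**Figure D5:**
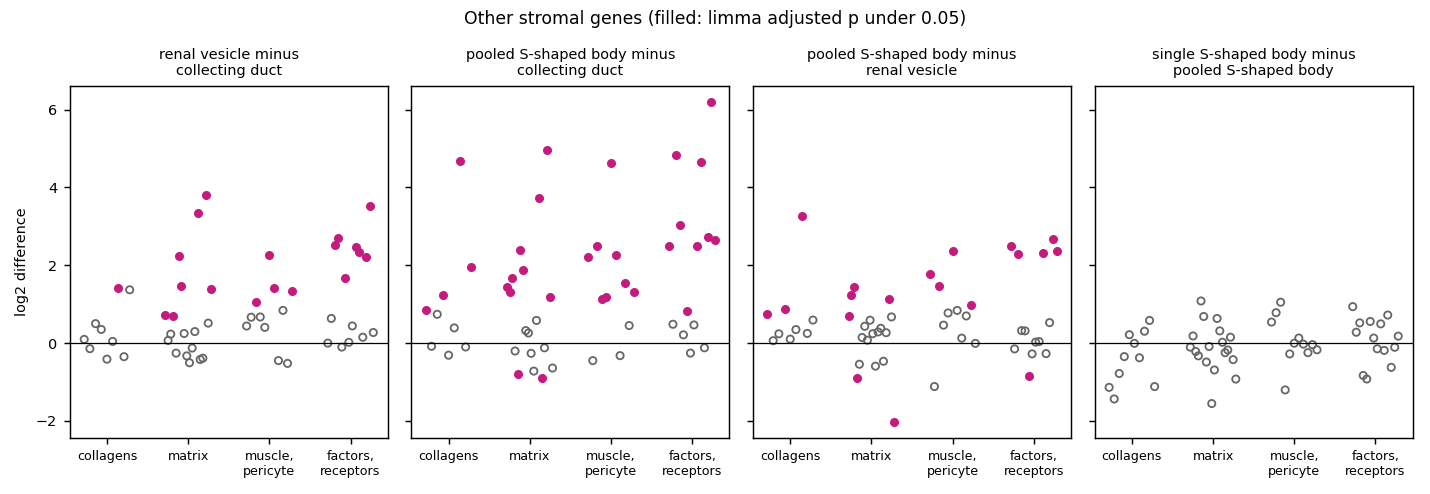
Fitted log2 difference of the other stromal genes tested, 1 point per gene in the 4 lists, filled where limma's adjusted p was under 0.05 and open otherwise, for the comparisons renal vesicle minus collecting duct, pooled S-shaped body minus collecting duct, pooled S-shaped body minus renal vesicle, and single minus pooled S-shaped body. Called genes number 19, 31, 19 and 0 in the order of the comparisons.

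In single against pooled S-shaped bodies 0 of 53 other stromal genes were called by limma, 10 had an unadjusted p under 0.05, and 3 were called with all 12 arrays in the fit. Their summed signal was 12700 to 13850 in single S-shaped bodies, 11640 to 13170 in pooled S-shaped bodies, 8383 to 10030 in renal vesicles and 4060 to 5283 in collecting ducts. Of the 62 genes, 19 were above background on no array in single S-shaped bodies, 15 in pooled S-shaped bodies, 14 in renal vesicles and 27 in collecting ducts. Of the partners, Gdnf was lower in single than in pooled S-shaped bodies, at least 2.56-fold (adjusted p = 0.0342), and the call was lost with no filter and without pooled replicate 1, 2 or 3 or single replicate 3 or 4.

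Markers of cells other than stroma differed between the same groups, although Tcf21, among the podocyte genes, is also listed as stromal. The summed signal of 10 endothelial genes was 6598 to 8818 in single S-shaped bodies, 6952 to 8532 in pooled S-shaped bodies, 1536 to 3185 in renal vesicles and 53.08 to 90.12 in collecting ducts, where Pecam1, Cdh5, Kdr, Flt1, Tek, Tie1, Cldn5 and Cd34 were above background on no array. In renal vesicles only Flt1 was above background on no array. Of these 10, 5 rose in renal vesicles against collecting ducts, as did 10 in pooled S-shaped bodies, and 9 in pooled S-shaped bodies against renal vesicles. Over all probe sets, 12.2%, 18.0% and 17.2% were called higher in these comparisons. The summed signal of 7 podocyte genes was 5824 to 7499 in single S-shaped bodies, 6428 to 7019 in pooled S-shaped bodies, 1579 to 5642 in renal vesicles and 113.4 to 142.1 in collecting ducts, with Podxl above background on no array and Ptpro and Foxc2 on none of the collecting duct arrays. That of 6 red cell genes was 1197 to 4712 in single S-shaped bodies, 5246 to 6990 in pooled S-shaped bodies, 117.9 to 814 in renal vesicles and 134.2 to 190.9 in collecting ducts. That of 10 macrophage genes was 169.4 to 271.2 in single S-shaped bodies, 213.2 to 226 in pooled S-shaped bodies, 129.7 to 150.5 in renal vesicles and 262.8 to 343.9 in collecting ducts. Their part in the members' differences was not tested.

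Genes with profiles most like those of the members over the 12 arrays were ranked by the mean absolute difference of log2 profiles, each centred on its own mean. The list is a description, since the arrays share groups and amplification. Cxcl12 lay nearest to Enpep (0.51), Ptpro (0.51) and Gimap4 (0.69), and Col1a2 to Gimap4 (0.76), Mapt (0.84) and the second brightest Cxcl12 probe set (0.84). Col1a1 lay nearest to the dimmest Cxcl12 probe set (0.51), Ramp2 (0.51) and Timp3 (0.53), and Col3a1 to Sparcl1 (0.38), Tenm4 (0.39) and Pkdcc (0.39). Acta2 lay nearest to Ankrd33b (0.40), Emcn (0.40), which is an endothelial gene, and Gnai2 (0.50).

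Postn was nearest to Tmsb4x (0.35), Phlda1 (0.37) and Lrrfip1 (0.49). Meis1 was nearest to Otulinl (0.31), Unc5c (0.33) and Wnt5b (0.35), and Nr2f1 to Cacna1g (0.47), Lsp1 (0.49) and Cyp1b1 (0.53). Gas1 was nearest to Mest (0.35), Pkdcc (0.39) and St3gal6 (0.44). Ddr2 was nearest to Hic1 (0.58), Lor (0.58) and Zfr2 (0.65). Pkdcc is the one gene among the 3 nearest of both Col3a1 and Gas1, and Gimap4 of both Cxcl12 and Col1a2.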

How the data were processed

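The labels' protocols state TRIzol extraction, T7-driven amplification over 2 rounds and the array type, MG_U74Av2. The authors deposited 1 intensity per probe set and array, on a linear scale with some values below 0, for 12422 probe sets and 66 controls. The submitters' processing notes name GCOS, with no version, and how probes were summarised or scaled is not given in the sources used here. Medians of the arrays lay up to 17.8 times apart. All 12 arrays were therefore quantile normalized without controls, values under 0 were set to 0, and log2 was taken after adding a pseudocount of 7.22 (25% of the median), which understates changes of dim genes.

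A filter at the 25th percentile of the mean level left 9316 probe sets to test. Differences came from limma 3.58.1 in R 4.3.3 (trend, two-sided, Benjamini-Hochberg over all tested, calls at an adjusted p under 0.05), in 1 fit of 9 arrays and, for single against pooled S-shaped bodies, 1 fit of 6. The number of arrays limits the precision. No array was left out, and the fits were tested on simulated data. Annotation gave 1 symbol to 10833 probe sets, several to 396 and none to 1193. The lead probe set of a gene is the one with the highest mean. Members and lists were chosen with earlier results of these data known. Named by rule were all members, per comparison and direction the 3 called other stromal genes with the largest change and no overlap, the 3 largest called partner and collagen processing genes, and 3 nearest profiles per member. Promoters came from RefSeq (GRCm38.p6), where 9 of 10 members have a start.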

Additional observations from a re-analysis of the deposited data

How the results depend on the processing

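The 40 differences of members were recomputed under other pseudocounts, scalings, filters and fits and without each array in turn (its lowest and highest value), in 520 values. Of these, 445 moved by less than 1 SD of the replicates and 73 by more, and the other 2 are given with the signs. The SD used was the larger one of the groups compared, which was 2.73 for Col1a2 wherever renal vesicles were compared. A difference of group means cannot change with the filter, limma's trend or the groups added to a fit. Values under those settings are among the 445 by construction, so no stability is read from that count. In 20 of the 520 the sign turned, 7 of them on the deposited scale, 3 on another probe set of the gene and 10 under other settings, where 0 had passed limma's threshold as reported. The 2 turned values of differences that had passed it were Col1a2 on its other probe set in pooled S-shaped bodies against collecting ducts (-0.0949) and Nr2f1 on the deposited scale in pooled S-shaped bodies against renal vesicles (0.10). The cause was not tested.

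On the deposited scale, without normalization between arrays, 7285 probe sets were called in renal vesicles against collecting ducts (2208 as reported), 5416 in pooled S-shaped bodies against renal vesicles (3380) and 8372 in single against pooled S-shaped bodies (36). Other stromal genes called were then 32 (19 as reported; 10 higher and 22 lower), 42 (19) and 50 (0). The share of calls that were higher moved to 3.07% (51.3% as reported), 94.1% (47.4%) and 0.131% (63.9%), and to 24.3% (47.5%) in pooled S-shaped bodies against collecting ducts. The median difference moved to -1.39, 0.94, -2.20 and -0.47. Relative to that shift, Meis1 in pooled S-shaped bodies against renal vesicles and Col1a1 in single against pooled S-shaped bodies still turned. A filter at the 50th percentile left 29 other stromal genes in pooled S-shaped bodies against collecting ducts, of which 20 were called (31 as reported).

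Single against pooled S-shaped bodies gave 140 calls with scaling to the 75th percentile (79.3% higher), 444 with all 12 arrays and 1 to 72 without 1 array, the fewest without pooled replicate 2 and the most without single replicate 5. Of other stromal genes 3 were called with all 12 arrays. For the 33 named differences of other genes, the same alternatives were added after the data had been seen: outside the deposited scale 24 kept their call throughout, 9 lost it under at least 1, and 0 turned. On the deposited scale 7 turned. Against collecting ducts, renal vesicles then gave -0.33 for Serpinh1, -0.36 for Ptch1 and -0.46 for Ackr3. Against renal vesicles, pooled S-shaped bodies gave 0.18 for Fbln1, 0.15 for Nr2f2, 0.21 for Serpinh1 and 0.28 for Smo.

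With the replicate number as a block, 1375 probe sets were called in renal vesicles against collecting ducts (2208 as reported). Pooled S-shaped bodies then gave 3315 against collecting ducts (3528) and 2429 against renal vesicles (3380). Same-numbered arrays did not deviate together (11 pairs, r of -0.08 to 0.04), and 43 pairs with different numbers had r of -0.13 to 0.11. Such correlations cannot show whether same-numbered arrays share an embryo or a batch, so a pairing by number remains unknown. Single and pooled S-shaped bodies share 1 number only, so no block by number was fitted for that comparison. Signal near background limits what dim probe sets can show.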

Other observations

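Of 16 listed genes that modify and cross-link collagen, 10 were tested, of which 3 rose and 0 fell in renal vesicles against collecting ducts, 5 rose and 0 fell in pooled S-shaped bodies against collecting ducts, and 2 rose and 1 fell in pooled S-shaped bodies against renal vesicles. Of all probe sets, 23.7%, 37.9% and 36.3% were called in these comparisons. Lox, an enzyme that cross-links collagen and elastin, was at least 2.42-fold higher in renal vesicles (limma adjusted p = 0.000698) and at least 2.27-fold higher in pooled S-shaped bodies (0.000437) than the collecting duct background. Its relative Loxl1 was at least 1.84-fold higher in renal vesicles (limma adjusted p = 0.00145, 2 of 3 arrays above background). In pooled S-shaped bodies Loxl1 was at least 2.88-fold higher (limma adjusted p = 0.000161). The Lox set is marked as one whose probes can match related transcripts.

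Serpinh1, the chaperone of procollagen, rose by 1.18 ± 0.31 log2 units in renal vesicles against collecting ducts (limma adjusted p = 0.0179) and fell by 0.87 ± 0.31 in pooled S-shaped bodies against renal vesicles (0.0472), where the arrays overlapped. The first call was lost with no filter and without collecting duct replicate 1 or 2, and the second under 13 of 19 other settings. Crtap, part of the collagen prolyl hydroxylation complex, rose by 1.17 ± 0.24 in pooled S-shaped bodies against collecting ducts (0.00269) and by 0.71 ± 0.24 against renal vesicles (0.0377), and Plod3, a lysyl hydroxylase, by 0.69 ± 0.22 against renal vesicles (0.0291). The calls of Crtap and Plod3 against renal vesicles were lost under 12 and 6 of 19 other settings, which include leaving out renal vesicle replicate 2 or 4. In single against pooled S-shaped bodies, 0 of 10 were called by limma and 2 had an unadjusted p under 0.05.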
